A study of Mus musculus with 5 samples.

Results

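The cytosolic ribosomal protein genes encode the proteins of the ribosomes that work outside mitochondria. They were taken by name alone. Every row named Rpl or Rps, a number and an optional a, x or y was included, together with Rpsa, Rplp0, Rplp1 and Rplp2. This gave 76 of 19061 gene rows, of which 46 encode proteins of the large subunit and 30 of the small subunit. All 76 were well detected, with no fewer than 1917 reads in any library, and all 76 entered the test.

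The libraries were made from hearts of C57BL/6 mice at postnatal day 158, all calcineurin transgenic. In this model, known for severe hypertrophy, the alpha myosin heavy chain promoter drives an active calcineurin in cardiomyocytes, and the vehicle mice carry the transgene as well. Mice received vehicle (2 libraries) or JIB-04 at 50 mg/kg (3 libraries), an inhibitor of Jumonji histone demethylases, from 4 weeks of age with 3 doses a week, and the comparison asks what the inhibitor alters in the hypertrophic heart. The labels do not say that each library is a separate animal, so p-values measure the spread between these libraries, which may be technical in part.

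A ribosome joins a small subunit, which reads the mRNA, to a large subunit, which forms the peptide bond. Their proteins are made in matched amounts, and most of the mRNAs start with a run of pyrimidines (C or T in the DNA), the terminal oligopyrimidine or TOP motif, through which mTORC1 signalling controls their translation. Ribosome number and protein synthesis are known to increase when cardiomyocytes enlarge. Control through the TOP motif acts on translation, which mRNA levels do not show.

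The starts of 56 of the 76 genes were found in RefSeq sequence (GRCm38.p6), 46 of them at the deposited start. The windows below run from 10 bases before the start to 20 bases from the start base onward, on the coding strand, 5′ to 3′, with the longest run of C and T in capitals. The first set shows the members with the highest fitted differences over both subunits together, Rpsa (chr9:120127756-120127785, plus strand), Rps12 (chr10:23787190-23787219, minus), Rpl12 (chr2:32961702-32961731, plus) and Rps23 (chr13:90923112-90923141, plus). It also shows those with the lowest, Rps13 (chr7:116334171-116334200, minus) and Rpl24 (chr16:55966265-55966294, plus).
Rpsa: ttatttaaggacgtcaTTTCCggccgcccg
Rps12: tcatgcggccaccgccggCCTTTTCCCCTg
Rpl12: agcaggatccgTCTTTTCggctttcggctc
Rps23: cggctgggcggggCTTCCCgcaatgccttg
Rps13: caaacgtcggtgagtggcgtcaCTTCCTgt
Rpl24: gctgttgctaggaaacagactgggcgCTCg
The second set shows the longest runs among the members, in Rpl27a (chr7:109519185-109519214, plus, 20 bases), Rpl35 (chr2:39005112-39005141, minus, 18), Rpl15 (chr14:18270967-18270996, minus, 17) and Rpl7a (chr2:26910797-26910826, plus, 17).
Rpl27a: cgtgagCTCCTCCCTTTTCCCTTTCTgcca
Rpl35: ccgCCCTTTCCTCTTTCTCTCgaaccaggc
Rpl15: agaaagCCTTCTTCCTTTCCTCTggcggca
Rpl7a: CTCTTCTTTCTTTCTCCagcagccgagcaa

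A run of at least 8 C or T lay in this window in 20 of the 56 members (35.7%), against 11.2% of 32851 RefSeq starts. The run could lie anywhere in the window and did not have to begin at the start base. It is therefore no count of TOP motifs, and members without it are not shown to lack one. By subunit the counts were 11 of 34 large and 9 of 22 small members. The 20 members with such a run had log2 fold changes with a median of 0.06, as did the 36 with a shorter run (median 0.06). Every JIB-04 library lay above both vehicle libraries in 6 of the 20 and in 20 of the 36, against 10.7% of all genes tested. Among the 4 with the longest runs the log2 fold changes were 0.05 for Rpl27a, 0.05 for Rpl35, 0.06 for Rpl15 and 0.02 for Rpl7a, and in each of them the groups overlapped. In the 300 bases around the start (250 before, 50 after), the letters CCGGAA stood on either strand in 28 of 56 members (50%) against 14.9% of all starts. AAGATGGC stood in 5 (8.93%) against 2.75%, and TATAAA in 6 (10.7%) against 13.6%. These matches describe letters only.

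Depth was even, at 32152168 to 37002846 recovered reads per library. Calcineurin A (Ppp3ca), which can take up transgene reads, had 6082 and 8022 CPM (the deposited, library-scaled read values) in vehicle and 7275, 4341 and 5421 CPM in JIB-04. Summed cardiomyocyte markers, which define the labelled tissue, were high in all libraries, at 90894 to 120780 CPM. In the title of JIB-04 replicate 3 the abbreviated genotype differs by a letter from the other titles, but its genotype label does not differ.

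Ribosomal protein mRNAs were abundant. Together they held 1.63% and 1.54% of reads in vehicle and 1.65%, 1.72% and 1.76% in JIB-04. Mean levels ran from 66.4 to 592 CPM with a median of 186 CPM. The highest were Rplp0 (592 CPM) and Rpl4 (523 CPM) for the large subunit and Rpsa (519 CPM) and Rps2 (464 CPM) for the small subunit. The lowest were Rpl39 (66.4 CPM) and Rpl38 (73.7 CPM) for the large subunit and Rps28 (93.2 CPM) and Rps21 (102 CPM) for the small subunit. Per kilobase of transcript, the scale on which levels of different genes can be compared, members ran from 118 for Rps3 to 924 CPM per kb for Rplp1. The medians were 286 CPM per kb for the large and 315 for the small subunit. Proteins of the same ribosome thus had mRNA levels over a wide range, with the caveat that reads shared with pseudogenes and the choice of transcript enter these values.

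With JIB-04, most ribosomal protein genes had slightly higher values than with vehicle, and none of the differences passed the test. limma called 0 of the 76 members and 0 of all 14414 genes tested (0%), with a smallest adjusted p of 0.793 among members. At an unadjusted limma p under 0.05 there were 0 members, against 6.44% of all genes (3.93% higher and 2.51% lower). On the recovered reads edgeR and DESeq2 also called 0 members, where over all genes edgeR called 0 and DESeq2 85 (69 higher, 16 lower). At the unadjusted level they had 0 and 1 members (Rpsa), and 946 and 823 of all genes. Positive log2 fold changes were found in 71 of 76 members, against 46.9% of all genes tested, and negative ones in 5, against 53.1%. In 30 of 76 (39.5%) every JIB-04 library lay above both vehicle libraries, against 10.7% of all genes, and in 0 every JIB-04 library lay below both, against 12%. The members share libraries and one scaling, so they are not independent of each other and these counts carry no p-value. In whole tissue, fewer cells of a type and less RNA per cell cannot be told apart.

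The differences were small. The median log2 fold change, on the log2(CPM + 1) scale, was 0.05 for the large subunit (range -0.03 to 0.15) and 0.06 for the small subunit (range -0.08 to 0.16), beside -0.01 for all genes tested. Of the 76 members, 32 lay within 0.05 of 0 and 13 were at 0.1 or more, 5 large and 8 small. By absolute size, 33 exceeded their own standard error (Rps13 with a negative value) and 3 exceeded 2 standard errors. The standard errors, at 0.06 to 0.10, were well above the counting error of 0.0093 to 0.028, so depth did not set the precision. limma draws each standard error partly from other genes, so it is not the spread of that gene alone. Rpl10, for example, had a within-group SD of 0.0052 and a standard error of 0.064. The 95% intervals of single members reached from lower bounds between -0.26 and -0.01 to upper bounds between 0.11 and 0.35 on the log2 scale. With reads divided by the plain library total in place of the deposited scaling, the medians were 0.10 and 0.11, where all genes had a median of 0.04. At an unadjusted limma p under 0.05 there were then 10 of 76 members, against 900 of all 14414 genes tested. With upper quartile scaling there were 4 members, against 927 genes, and with median-of-ratios scaling 1 member, against 920. Of these scalings, only the plain total gave members a larger share than all genes. With any of them 0 members were called.

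**Figure D1:**
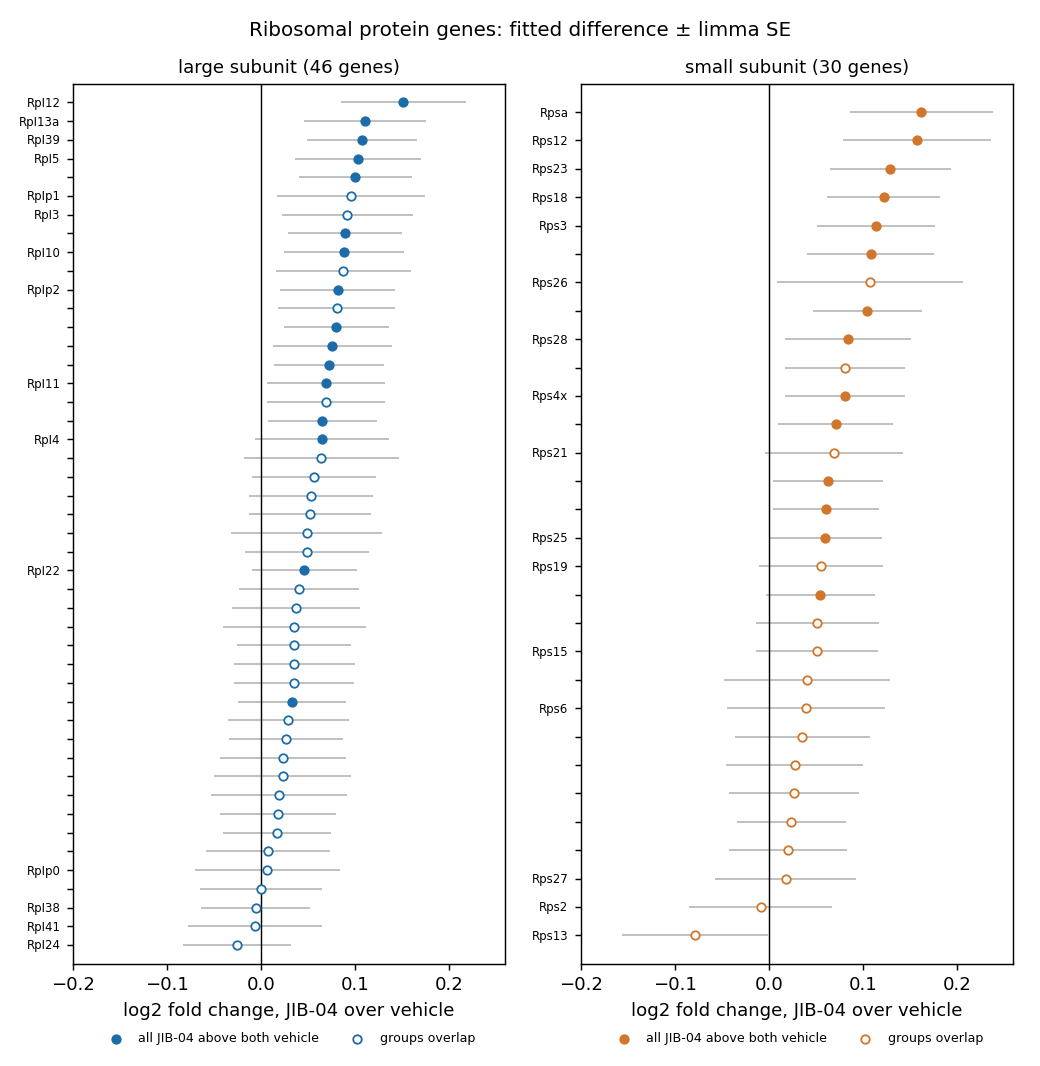
Fitted log2 fold change of each ribosomal protein gene (horizontal axis, JIB-04 over vehicle, log2(CPM + 1) scale) with the limma standard error as a bar, for 46 large subunit genes (left) and 30 small subunit genes (right). Most genes described in the text are labelled. Filled points mark the 16 large and 14 small subunit genes whose 3 JIB-04 libraries all lie above both vehicle libraries; 3 large and 2 small subunit points lie left of 0.

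The shift was uneven across the JIB-04 libraries. Relative to each gene's vehicle mean, large subunit members averaged 0.04, 0.03 and 0.10 on the log2 scale in JIB-04 replicates 1, 2 and 3, and small subunit members 0.06, 0.02 and 0.11. Both vehicle libraries were within 0.01 of 0. That mean is their own, so their deviations are mirror images, and their closeness rests on the deposited scaling. As a share of all reads, members held 1.63% and 1.54% in vehicle and 1.65% in JIB-04 replicate 1. JIB-04 replicate 3 held the highest value for 52 of 76 members and the lowest for 0. The lowest value fell in a vehicle library for 19 members (replicate 1) and 34 members (replicate 2). When JIB-04 replicate 3 was left out, the median was 0.03 for the large and 0.04 for the small subunit, and 58 members were positive, 34 large and 24 small.

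**Figure D2:**
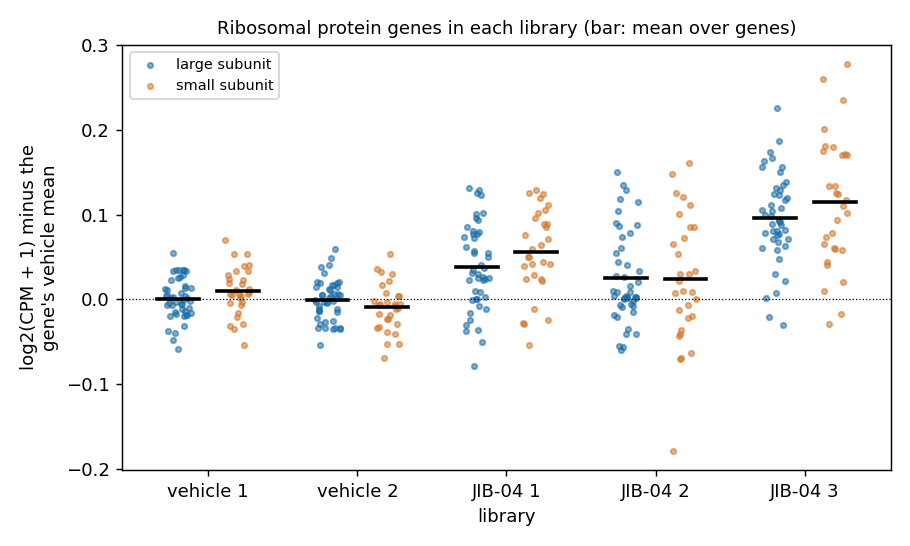
Each point is 1 ribosomal protein gene in 1 library, as log2(CPM + 1) minus the gene's mean over both vehicle libraries, and the black bar is the mean over genes (large subunit left, small subunit right in each library). The bars stand at 0.10 and 0.11 in JIB-04 replicate 3 and at 0.02 to 0.06 in replicates 1 and 2.

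Some markers of other cell types differed between the groups, and those of others did not. Summed macrophage markers were at 168 to 233 CPM in vehicle and 232 to 372 CPM in JIB-04 (8 of 9 with positive values, 4 with every JIB-04 library above). Lymphocyte markers were at 2.90 to 3.41 and 4.34 to 6.42 CPM (8 of 8 positive, 4 above), which is low for a sum over 8 genes. Fibroblast markers were at 2298 to 2597 and 2510 to 3632 CPM (7 of 8 positive, 2 above). Red blood cell markers were at 4648 to 7076 CPM in vehicle and 1717 to 3402 CPM in JIB-04 (0 of 8 positive, 7 below). Among them the Hba-a2 row repeated that of Hba-a1 in every library, and the Hbb-b1 row repeated that of Hbb-bs. The 8 and 7 are therefore counts of rows and not of separate measurements, and the sum includes the repeated rows. Cardiomyocyte markers were at 105956 to 120780 and 90894 to 117209 CPM, with 9 of 10 values negative. Endothelial markers (854 to 898 and 784 to 1023 CPM, 4 of 8 positive) and smooth muscle and pericyte markers (1433 to 1816 and 1332 to 1967 CPM, 4 of 7 positive) had 0 genes without overlap. The summed lymphocyte and red blood cell values did not overlap between groups, while the other sums did. Of these lists, no marker in the files was at 0 throughout. The macrophage sum and the smooth muscle and pericyte sum, like the ribosomal protein genes, were highest in JIB-04 replicate 3, at 372 and 1967 CPM. In JIB-04 replicates 1 and 2 the macrophage sum was 232 and 329 CPM, and the smooth muscle and pericyte sum 1864 and 1332 CPM. The part of any cell type in the result was not tested.

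The balance of the subunits did not differ between groups beyond the spread between libraries. The mean log2 value of large minus that of small subunit members, which does not depend on how a library is scaled, was 0.033 and 0.050 in vehicle and 0.024, 0.043 and 0.023 in JIB-04. The groups overlapped, and the difference of -0.011 between their means was no larger than the spread within groups (SD 0.012). The ratio of summed CPM of large to small subunit genes was 1.61 and 1.64 in vehicle and 1.6, 1.63 and 1.61 in JIB-04. In both subunits nearly all members had positive values, 43 of 46 large and 28 of 30 small, and the members above both vehicle libraries in every JIB-04 library numbered 16 of 46 (34.8%) and 14 of 30 (46.7%). Summed over all members, the level was 16193 and 16163 CPM in vehicle and 16635, 16454 and 17424 CPM in JIB-04, a ratio of the means of 1.04.

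Among small subunit proteins, Rpsa, also known as the laminin receptor precursor, had the highest fitted difference. It was at 486 and 483 CPM in vehicle and 521, 537 and 570.4 CPM in JIB-04. All JIB-04 libraries lay above vehicle, with a log2 fold change of 0.16 and a standard error of 0.08 (limma adjusted p = 0.815, unadjusted p = 0.0712). Rps12, a protein of the small subunit's head, was at 254 and 251 against 261, 283 and 303 CPM, and Rps23, which lies at the decoding centre, at 106 and 110.5 against 114, 117 and 124 CPM. Neither group pair overlapped, and JIB-04 replicate 3 was the highest library for both. Rps18, a head protein, was at 152 and 151 against 165, 159.5 and 171 CPM, and Rps3, at the mRNA entry channel, at 214 and 208 against 224, 224 and 238 CPM. Rps4x, which is X-linked, was at 303 and 291 against 322, 311 and 309 CPM. These 3 also had no overlap between groups, with log2 fold changes of 0.12, 0.11 and 0.08.

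In other small subunit genes the libraries overlapped or lay close together. Rps6, the substrate of the S6 kinases downstream of mTORC1, was at 304 and 311 CPM in vehicle and 305, 299 and 347 CPM in JIB-04. Only JIB-04 replicate 3 stood above vehicle, and without it the log2 fold change was -0.03 against 0.04 with it. Rps26, which lines the mRNA exit channel, was at 109.7 and 108.9 against 105, 117 and 133 CPM. It had the largest standard error of the members (0.10), with 1 JIB-04 library below and 2 above vehicle. Rps19, mutated in Diamond-Blackfan anaemia, was at 114 and 106 against 113, 110.5 and 119 CPM. Rps25 was at 191 and 197 against 203, 197 and 207 CPM, and its lowest JIB-04 library was barely above the higher vehicle library. The groups just separated for Rps25 and also for Rps28, which was at 89.4 and 90.4 against 92.7, 92.0 and 102 CPM. Rps21, the other small subunit gene of low level, was at 100.3 and 97.1 against 108, 95.7 and 108 CPM, with overlap. Rps15 had a log2 fold change of 0.05 with overlapping groups and the steadiest values once the mean of all members in each library was taken off.

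The negative values belonged to Rps13 and Rps2. Rps13, in the body of the small subunit, was at 254 and 273 CPM in vehicle and 258, 232 and 258 CPM in JIB-04. Its log2 fold change of -0.08 (standard error 0.08) was the lowest of all members, while both JIB-04 replicates 1 and 3 lay within the vehicle range. Rps2 was at 483 and 449 against 473, 444 and 473 CPM, with a log2 fold change of -0.01 that turned positive (5.9e-05 to 0.04) with each of the other scalings and was -0.00075 with DESeq2.

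**Figure D3:**
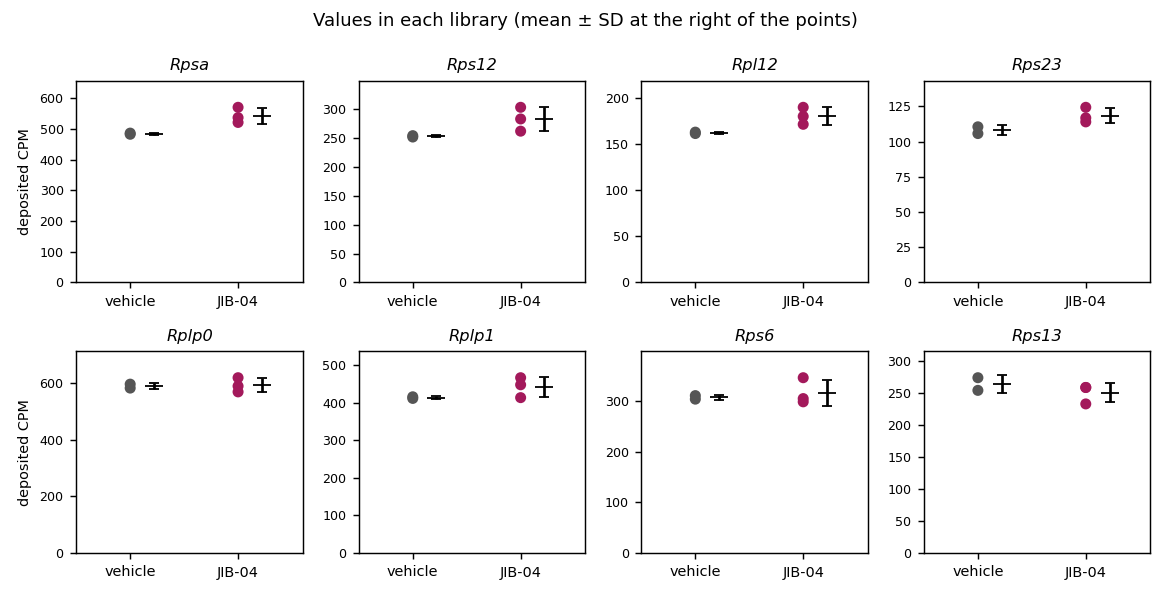
Deposited CPM (vertical axes, starting at 0) in each library for 8 ribosomal protein genes, with the group mean and SD beside the points (n = 2 vehicle, n = 3 JIB-04). Rpsa, Rps12, Rpl12 and Rps23 (top row) show no overlap between groups, and Rplp0, Rplp1, Rps6 and Rps13 (bottom row) overlap.

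In the large subunit, Rpl12, at the base of the stalk, had the smallest p of all members. It was at 162 and 163 CPM in vehicle and 172, 180.4 and 190.2 CPM in JIB-04, with a log2 fold change of 0.15 and a standard error of 0.07 (limma adjusted p = 0.793, unadjusted p = 0.0577). The other stalk proteins bind translation factors. Rplp0, to which the others attach, was at 583 and 597 against 570.0, 590.4 and 620.2 CPM (log2 fold change 0.01), and Rplp1 at 416 and 412 against 414, 448 and 467 CPM (0.10), both with overlapping groups. Rplp2 was at 187 and 190.5 against 202, 192 and 205 CPM (0.08), with all JIB-04 libraries above vehicle. With standard errors of 0.08, 0.08 and 0.06, differences between these 3 genes were not tested.

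Rpl5 and Rpl11, which form a particle with the small RNA of the large subunit and bind Mdm2 when ribosome assembly fails, both had JIB-04 libraries above vehicle. Rpl5 was at 348 and 345 against 369.8, 361 and 386 CPM, and Rpl11 at 164 and 166 against 172, 167 and 181 CPM, with log2 fold changes of 0.10 and 0.07. Rpl10, a late-joining protein needed before subunits pair, was at 379.8 and 382 against 404, 405 and 407 CPM. It had little spread within either group and a log2 fold change of 0.09. Around the peptide exit tunnel, Rpl4 was at 502 and 516 against 528, 521 and 547 CPM and Rpl39 at 64.4 and 62.4 against 69.2, 69.5 and 66.7 CPM, with log2 fold changes of 0.06 and 0.11 and no overlap. Rpl13a, also described in translational silencing by interferon, was at 203 and 208 against 211, 226 and 229 CPM (0.11), again without overlap. Rpl3, near the catalytic centre, was at 325 and 343 against 341, 363 and 365 CPM (0.09), where JIB-04 replicate 1 lay between the vehicle libraries.

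The 3 large subunit members with negative values lay close to 0. Rpl41, a very short basic peptide between the subunits, was at 261.3 and 260.9 against 247, 257 and 276 CPM, and Rpl38, known from Hox mRNA translation in the embryo, at 75.7 and 72.1 against 74.3, 74.0 and 72.3 CPM. Both had a log2 fold change of -0.01 that was positive (0.0026 to 0.046) with each of the other scalings and with edgeR, DESeq2 and limma-voom. Rpl24, a bridge protein to the small subunit, was at 158 and 163 against 160.5, 154 and 158 CPM, with a log2 fold change of -0.03 that was 0.03 under the plain library total.

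Of 4 further genes of the cytosolic ribosome whose names fall outside the rule, 0 passed the test and 3 had positive values. Rps3a1 was at 373 and 366 CPM in vehicle and 393, 383 and 407 CPM in JIB-04, and Gnb2l1, which encodes the scaffold protein Rack1, at 286 and 279 against 291, 294 and 294 CPM. Fau, a fusion of a ubiquitin-like part with a small subunit protein, was at 109.7 and 111 against 112, 111 and 116 CPM. In these 3 genes every JIB-04 library lay above vehicle, with log2 fold changes of 0.09, 0.05 and 0.03. The smallest limma adjusted p of the list was 0.840.

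Some ribosomal proteins have a paralog that can take their place. Rpl3l, the striated muscle paralog of Rpl3, was at 61.3 and 67.7 CPM in vehicle and 79.6, 42.9 and 57.9 CPM in JIB-04. Its JIB-04 libraries lay on both sides of vehicle, and its share of Rpl3 and Rpl3l together was 15.8% and 16.5% against 18.9%, 10.6% and 13.7%. The log2 fold change of -0.14 had a standard error of 0.23 (limma adjusted p = 0.913). Rpl22, a large subunit protein that can be replaced, was at 125 and 123 against 131, 128 and 126 CPM, and its paralog Rpl22l1 at 7.01 and 7.16 against 7.56, 7.80 and 6.25 CPM. The paralog held 5.30% and 5.49% of the pair in vehicle and 5.45%, 5.74% and 4.72% in JIB-04, so no change of the pair could be seen. Rps27 was at 144 and 130.4 against 143, 130.4 and 143 CPM and Rps27l at 34.6 and 32.5 against 34.6, 32.9 and 30.5 CPM, both with overlap. Of 7 paralogs tested 0 were called and 0 had groups that did not overlap.

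Wider lists of the same pathway gave the setting. Of 79 ribosome biogenesis genes 0 passed the test, 54 had positive values and the median log2 fold change was 0.02, with every JIB-04 library above vehicle for 14 (17.7%) and below for 4, against 10.7% and 12% of all genes tested. Nop58, a core protein of box C/D small nucleolar particles, was at 27.5 and 26 CPM in vehicle and 28.9, 32.9 and 34.2 CPM in JIB-04 (log2 fold change 0.25, limma adjusted p = 0.748). Fbl, the methyltransferase of those particles, and Utp18, of the small subunit processome, had log2 fold changes of 0.14 and 0.22, also without overlap. Of 39 translation factors 0 passed, with 21 positive and a median of 0.003. Eif5 and Eif2s1, both of translation initiation, were at 0.14 and 0.09 on the log2 fold change scale, and Eef1a2, the muscle form of the elongation factor that delivers tRNA, at -0.18. Of 16 other genes with TOP mRNAs 0 passed, 9 were positive and the median was 0.01. Among them Npm1, a nucleolar chaperone, was at 0.08, Btf3, of the nascent chain complex, at -0.07, and Eif3h at -0.11. The lists share genes. Eef2, Eif3h and others are also counted as translation factors, and Npm1 also as a ribosome biogenesis gene.

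Of 27 genes of growth signalling (mTORC1 and Myc) 0 passed the test, 6 were positive and 21 negative, with a median of -0.05. For 9 of them every JIB-04 library lay below vehicle, against 12% of all genes tested, and for 0 above, against 10.7%. Tsc2, which restrains mTORC1, was at 153 and 163 CPM in vehicle and 147, 143 and 139 CPM in JIB-04, and Max, the partner of Myc, at 57.4 and 59.8 against 51.1, 44.5 and 52.2 CPM. The groups did not overlap for either gene, with log2 fold changes of -0.14 and -0.25. Sesn1, a brake on mTORC1 when amino acids are scarce, was at 173 and 197 against 174, 132 and 128 CPM, a log2 fold change of -0.37 with overlap (limma adjusted p = 0.748). The 77 mitochondrial ribosomal protein genes had 16 positive values, against 71 of 76 for the cytosolic genes, and a median of -0.06. Every JIB-04 library lay above vehicle for 1 of them and below for 9, against 10.7% and 12% of all genes tested. No test compared the lists with each other.

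**Figure D4:**
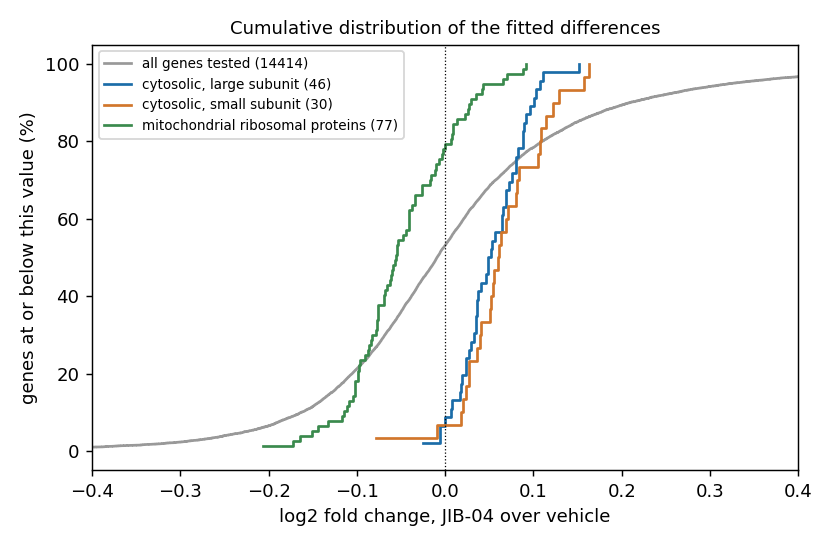
Share of genes (vertical axis, %) with a fitted log2 fold change at or below the value on the horizontal axis, for all 14414 genes tested, 46 large and 30 small subunit genes of the cytosolic ribosome and 77 mitochondrial ribosomal protein genes. Medians lie at -0.01 for all genes, 0.05 and 0.06 for the cytosolic subunits and -0.06 for the mitochondrial ribosome.

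The members varied little within groups. The median SD of log2 values within a group was 0.050 for members and 0.108 for all genes tested. This comparison is not matched for level, as the genes tested include many with far fewer reads, where counting error adds to the spread. It was 0.042 for translation factors, 0.049 for other genes with TOP mRNAs (lists that share genes) and 0.033 for the further genes of the cytosolic ribosome. Ribosome biogenesis genes stood at 0.070, growth signalling at 0.083, mitochondrial ribosomal protein genes at 0.084 and paralogs at 0.085. A low spread was thus not particular to the members. Rps13 and Rps26 departed most from the mean of the other members over the 5 libraries. Across members, the log2 fold change was at most weakly related to level (Spearman rho with mean CPM -0.11, and -0.26 with mean CPM per kb), to transcript length (0.07) or to the share of sequence found in other genes (0.02), each over 76 members that come from the same libraries and are not replicates.

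Ribosomal protein genes have many processed pseudogenes, which can share their reads. Of all 50-base stretches in a member's transcript, a median of 69% also occurred in a transcript of another gene, and 56 of 76 members had 50% or more so shared. The 20 members under 50% shared had a median log2 fold change of 0.05, with 20 positive and 9 above vehicle in every JIB-04 library, and the 56 others 0.06, with 51 and 21. How the authors' counting treated reads with several matches is not given in the sources used here, so single levels are uncertain where sharing is high.

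In 4 cases a row with another name covered over 90% of the member on the same strand and carried almost the same values. These were Rps27 with Rps27rt, Rpl34 with Rpl34-ps1, Rpl26 with Gm15772 and Rpl30 with Gm12191, and the rows of such a pair cannot be told apart. A gene on the opposite strand overlapped Rpl5, Rpl31, Rpl32, Rpl35, Rps25 and Rps27a. The kit keeps strand, but whether counting used it is not stated, so reads in those overlaps are uncertain. Small nucleolar RNA genes, which lie in introns of ribosomal protein genes, numbered 29 rows within 20 members, 14 large and 6 small.

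The members were spread over 19 chromosomes, with 14 on chromosome 7 and 4 on the X. Rpl41 and Rps26 on chromosome 10, separated by 75360 bases, had log2 fold changes of -0.01 and 0.11. Rpsa lies at 120127766 to 120132369 on chromosome 9, Rpl12 at 32961712 to 32964045 on chromosome 2 and Rps13 at 116331507 to 116334190 on chromosome 7.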

How the data were processed

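RNA was extracted with Trizol and a stranded mRNA kit was used, per the labels' protocols. The submitters' processing notes name the build mm10 and the tools TopHat2 2.0.12, featureCounts, Subread, edgeR, Picard 1.127 and FastQC 0.11.2. The deposited values are a normalised signal headed CPM, whose columns sum to 954981 to 1046902. Whole reads were recovered (100% of values within 0.01 of a whole number), and the count tests were run on those. A blank row (1 per library) was left out. After edgeR's filterByExpr (at least 10 reads, 15 in total), 14414 genes were fitted with limma 3.58.1 (R 4.3.3) on log2(CPM + 1) with a mean-variance trend, 3 residual degrees of freedom, p-values adjusted by Benjamini-Hochberg over the whole table and called under 0.05. edgeR 4.0.16, DESeq2 1.42.0, limma-voom, other scalings, pseudocounts and filters, and leaving out each library were alternatives. The scripts were tested on simulated data.

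Members and lists were chosen with earlier results of these data known. Named members had the smallest p (3 per direction and subunit), the highest or lowest level or spread, or were fixed by name, and each pathway list gave up to 3 genes. Rps12, Rps3 and the genes with the longest runs were named after their values were seen. Some genes that the rule names are not reported here. Deposited starts count from 0, so 1 was added. Transcript lengths came from GENCODE M21. Counting errors and intervals cover these libraries only.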

Additional observations from a re-analysis of the deposited data

How the results depend on the processing

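With 2 against 3 libraries, the main fit had only 3 residual degrees of freedom, to which limma added 3.71 from all genes. Fits without a library or with the replicate block had fewer residual degrees of freedom. Under any alternative 0 members were called. Over all genes DESeq2 called 85 (69 higher, 16 lower), against 0 with limma, edgeR and limma-voom. With the plain library total the medians were 0.10 (large) and 0.11 (small), and 75 members were positive, against 71 with the deposited scaling and 74 with median of ratios or upper quartile. Leaving out 1 library at a time gave medians of 0.03 to 0.07 (large) and 0.04 to 0.08 (small). The large minus small difference was then -0.0201 to -0.0024, and 58 to 73 members were positive. Every remaining JIB-04 library lay above the remaining vehicle libraries in 31 to 44 members. With 1 library fewer this holds more easily for any gene, so the 10.7% over all 5 libraries is no measure for it. These leave-out fits gave 0 to 29 genes called, the 29 without JIB-04 replicate 1. There the smallest limma adjusted p of a member was 0.173. In that fit 7 of 76 members had an unadjusted limma p under 0.05, a smaller share than the 2698 of all 14414 genes tested. The replicate numbers were not taken as pairs. Same-numbered libraries deviated with a correlation of -0.13 in both pairs. The deviations of the 2 vehicle libraries from their mean are mirror images, so these values are not independent and do not decide on pairing. With the replicate block, JIB-04 replicate 3 has no partner and drops out, and the medians were 0.03 and 0.04, the subunit difference -0.0076, with 58 positive and 0 called. Of the log2 fold changes of named genes under alternatives, 723 kept their sign and 45 changed it, all in genes close to 0 or, for Rpl3l, with a wide spread. Rpl38 was at 0.0043 (edgeR), 0.0026 (DESeq2), 0.0048 (voom), 0.046 (plain total), 0.0034 (median of ratios), 0.014 (upper quartile) and 0.0068 (replicate block), and Rpl41 at 0.0062, 0.0045, 0.0042, 0.046, 0.0027 and 0.014 under the first 6 of these. Rps2 was at 0.00088 (edgeR), 0.0031 (voom), 0.044 (plain total), 5.9e-05 (median of ratios) and 0.011 (upper quartile). With the plain total Rpl24 was at 0.027 and Rps27l at 0.012. With the replicate block Rplp0 was at -0.025, Rps27 at -0.0056, Rps27rt at -0.0059, Rps6 at -0.026 and Rps27l at 0.0090. Leaving out 1 library gave -0.0402 to 0.0291 for Rpl38, -0.0499 to 0.0301 for Rpl41, -0.0619 to 0.044 for Rps2, -0.0252 to 0.0356 for Rplp0, -0.0263 to 0.0802 for Rps6, -0.0518 to 0.0879 for Rps27, -0.0512 to 0.0877 for Rps27rt, -0.0824 to 0.009 for Rps27l, -0.0381 to 0.1012 for Rpl22l1 and -0.363 to 0.0757 for Rpl3l. The cause of these changes was not tested.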
